A study of Mus musculus with 4 samples.

Results

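The genes described here build cholesterol and fatty acids, and control that synthesis, in mammary tumor cells. The list of 38 mouse genes was drawn up by known function, with earlier results of these data known, and a gene entered when the array held a probe set annotated to it alone. Of the 38 genes, 37 had such a probe set, of 19938 genes with one on the array, and where a gene had several the one with the highest mean was used. Acat2 was not analysed here. All 37 genes had a mean level above 6.78, the median of all values in the table. Mboat2 also appears among transcripts that the study selected on these same arrays.

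Cells make cholesterol from acetyl-CoA through mevalonate, the branched isoprenoids and squalene, and then trim the first sterol, lanosterol, in many steps. Fatty acids are built from the same acetyl-CoA by carboxylation and chain assembly, and are then lengthened by elongases and given double bonds by desaturases. The transcription factors SREBP-1 and SREBP-2 drive most of these genes. When sterols are scarce, Scap carries the SREBPs from the endoplasmic reticulum to the Golgi for release, and when sterols are plentiful the Insig proteins hold Scap back. Cells can also take cholesterol and fatty acids from the lipoproteins and albumin of serum.

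Levels were measured in 4 clonal lines, with 1 array for each. The mesenchymal-like lines M1 and M2 came from sorted cells with low neu and low CD24 and were grown in MEGM with 2% serum, bovine pituitary extract, epidermal growth factor, insulin and hydrocortisone. The epithelial lines E1 and E2 came from sorted cells with high neu and high CD24 and were grown in RPMI with 20% serum, HEPES, glutamine, non-essential amino acids and pyruvate. All 4 lines were derived by limiting dilution from a spontaneous mammary tumor of a female mouse labelled FVB Tg MMTV/neu (FVB/N in the methods), in which the mouse mammary tumor virus promoter drives rat ErbB2. Each line is a single clone, so an array shows that clone, and cell type cannot be told apart from medium, serum or added hormones. The question put to the arrays is how transcript levels of lipid synthesis differed between the 2 types, and between clones of a type. M1 is set apart in the study as the line without tumor growth.

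Values are log2 levels as the authors normalized them, with array medians between 6.75 and 6.85. The level of background on the arrays is not known, so every fold below is a ratio of listed values. The types were checked by Cdh1, the gene of E-cadherin, at 6.70 and 6.51 in M1 and M2, against 12.15 and 12.31 in E1 and E2. Zeb1, a repressor of epithelial genes, was at 10.99 and 10.64 in M1 and M2 and at 7.49 and 6.96 in E1 and E2. Krt8, Krt18 and Vim were high in all 4 lines, and Cd24a, whose protein was used in the sort, was at 12.39 and 12.53 in M1 and M2, against 11.61 and 12.15 in E1 and E2. Of 8 adipocyte markers measured, 5 lay below 6.78 in every line, among them Adipoq and Plin1, while Fabp4 stood at 7.20 in M1 and 10.77 in M2, against 5.26 and 5.50 in the epithelial lines. The adipocyte list summed on the linear scale to 645 for M1 and 2356 for M2, against 531 and 590 for E1 and E2. Most of the sum for M2 came from Fabp4 alone.

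Promoter sequences are shown for 5 genes on which the results below turn, so that the letters bound by the known regulators of the pathway can be seen. Each window runs from 250 bases before to 50 bases after an annotated start, 5′ to 3′ on the gene's own strand, and comes from RefSeq on build GRCm38.p6. Capitals mark CCAAT or its reverse complement ATTGG, the letters of the NF-Y site, and in Hmgcs1 also the sterol regulatory element TCACNCCAC, where N is any base.
Hmgcs1, chr13:119690101-119690400, plus strand: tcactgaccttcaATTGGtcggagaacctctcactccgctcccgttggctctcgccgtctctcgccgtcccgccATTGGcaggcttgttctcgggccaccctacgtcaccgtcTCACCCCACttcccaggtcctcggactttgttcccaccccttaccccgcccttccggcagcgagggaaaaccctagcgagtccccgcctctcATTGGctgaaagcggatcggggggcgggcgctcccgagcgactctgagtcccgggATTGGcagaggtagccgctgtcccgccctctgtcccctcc
Idi1, chr13:8885356-8885655, plus strand: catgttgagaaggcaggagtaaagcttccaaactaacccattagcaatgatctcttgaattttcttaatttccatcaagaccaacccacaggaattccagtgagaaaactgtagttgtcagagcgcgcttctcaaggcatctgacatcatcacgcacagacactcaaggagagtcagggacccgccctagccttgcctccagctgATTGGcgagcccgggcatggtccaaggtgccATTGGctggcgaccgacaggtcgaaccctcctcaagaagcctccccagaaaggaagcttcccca
Insig1, chr5:28071162-28071461, plus strand: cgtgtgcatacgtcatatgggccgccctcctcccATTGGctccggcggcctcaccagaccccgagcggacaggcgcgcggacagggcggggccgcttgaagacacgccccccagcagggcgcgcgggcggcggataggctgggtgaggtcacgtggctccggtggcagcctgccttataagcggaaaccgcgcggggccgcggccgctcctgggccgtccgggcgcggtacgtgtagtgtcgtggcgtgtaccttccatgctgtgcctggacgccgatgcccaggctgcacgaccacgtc
Fads3, chr19:10041298-10041597, plus strand: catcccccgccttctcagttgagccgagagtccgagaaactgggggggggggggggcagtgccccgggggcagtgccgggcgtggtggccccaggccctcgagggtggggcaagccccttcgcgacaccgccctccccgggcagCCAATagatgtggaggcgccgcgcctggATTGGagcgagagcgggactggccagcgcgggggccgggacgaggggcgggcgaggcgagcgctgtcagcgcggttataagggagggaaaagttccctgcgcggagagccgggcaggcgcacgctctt
Elovl7, chr13:108214154-108214453, plus strand: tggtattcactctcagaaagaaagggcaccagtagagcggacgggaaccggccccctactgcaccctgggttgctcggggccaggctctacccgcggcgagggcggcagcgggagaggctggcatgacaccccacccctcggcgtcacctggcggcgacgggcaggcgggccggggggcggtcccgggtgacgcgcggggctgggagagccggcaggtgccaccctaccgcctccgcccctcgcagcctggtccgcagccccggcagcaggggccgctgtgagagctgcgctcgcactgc
Windows were listed for 30 of the 37 genes, with 39 windows because some genes have several starts. Fdps, Fdft1, Sqle and Stard4 were among the genes without a window. On either strand, CCAAT was found for 25 of the 30 genes, or 83.3%, against 41.1% of 27025 genes in the table and 42.6% of 9320 protein-coding genes whose level was above the median of all values. The Sp1 letters GGGCGG were found for 83.3% of the 30 genes, against 38.2% of all genes and 69.9% of those protein-coding genes. TCACNCCAC was found for 1 of the 30 genes, Hmgcs1, where it begins 137 bases before the start, against 1.44% of all genes. Only these exact letters within the windows were searched, so the other genes may hold the element in another form or place. None of these motifs is contained in another, in Hmgcs1 the sterol regulatory element shares no base with a CCAAT match, and a match is a description of letters and not of binding. Among the 5 windows shown, that of Elovl7 held neither CCAAT nor TCACNCCAC.

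Most of the lipid synthesis genes had higher levels in the mesenchymal-like lines, but the differences of most were small and only 2 passed the test over all probe sets. Both mesenchymal-like lines lay above both epithelial lines in 23 of 37 genes, or 62.2%, against 24.2% of the 23410 annotated probe sets tested and 26.9% of the 13845 brighter ones. They lay below in 6 genes, or 16.2%, against 23.8% and 28.5%, and the types overlapped in 8. The median log2 difference, M1 and M2 minus E1 and E2, was 0.41 over the 37 genes and 0.00 over all probe sets tested. By limma, 1 gene was higher in the mesenchymal-like lines, Fads3, and 1 lower, Elovl7, at an adjusted p under 0.05, and 1.72% and 2.02% of all probe sets were called higher and lower, 3.73% in either direction. Without regard to overlap, the difference was above 0 in 29 genes (78.4%), against 50.4% of all probe sets, and 5 genes were at least 1 higher on the log2 scale and 3 at least 1 lower, against 5.25% and 4.48%. At an unadjusted p under 0.05, 13 genes (35.1%) were higher and 4 (10.8%) lower, against 8.95% and 9.00% of all probe sets. Mboat2, selected by the study on these arrays, is in the lower counts by overlap, by size and by unadjusted p. Without it, 5 of 36 genes (13.9%) lay below both epithelial lines. Then 2 were at least 1 lower, and 3 (8.33%) were lower at the unadjusted p. Beside the 2 genes that passed, 8 had an adjusted p between 0.05 and 0.1. The share of all probe sets in that range was not computed, so this count has nothing to be set against. With E1 or E2 left out, neither Fads3 nor Elovl7 passed by limma, and no other probe set did. With M1 or M2 left out, more passed, both among the 37 genes and over all probe sets, with Fads3 and Elovl7 among them. The median difference of the 37 genes was 0.28 without M1, 0.45 without M2, 0.45 without E1 and 0.26 without E2. Each of these fits leaves a type with 1 line, whose spread is taken to equal that of the opposite pair.

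**Figure D1:**
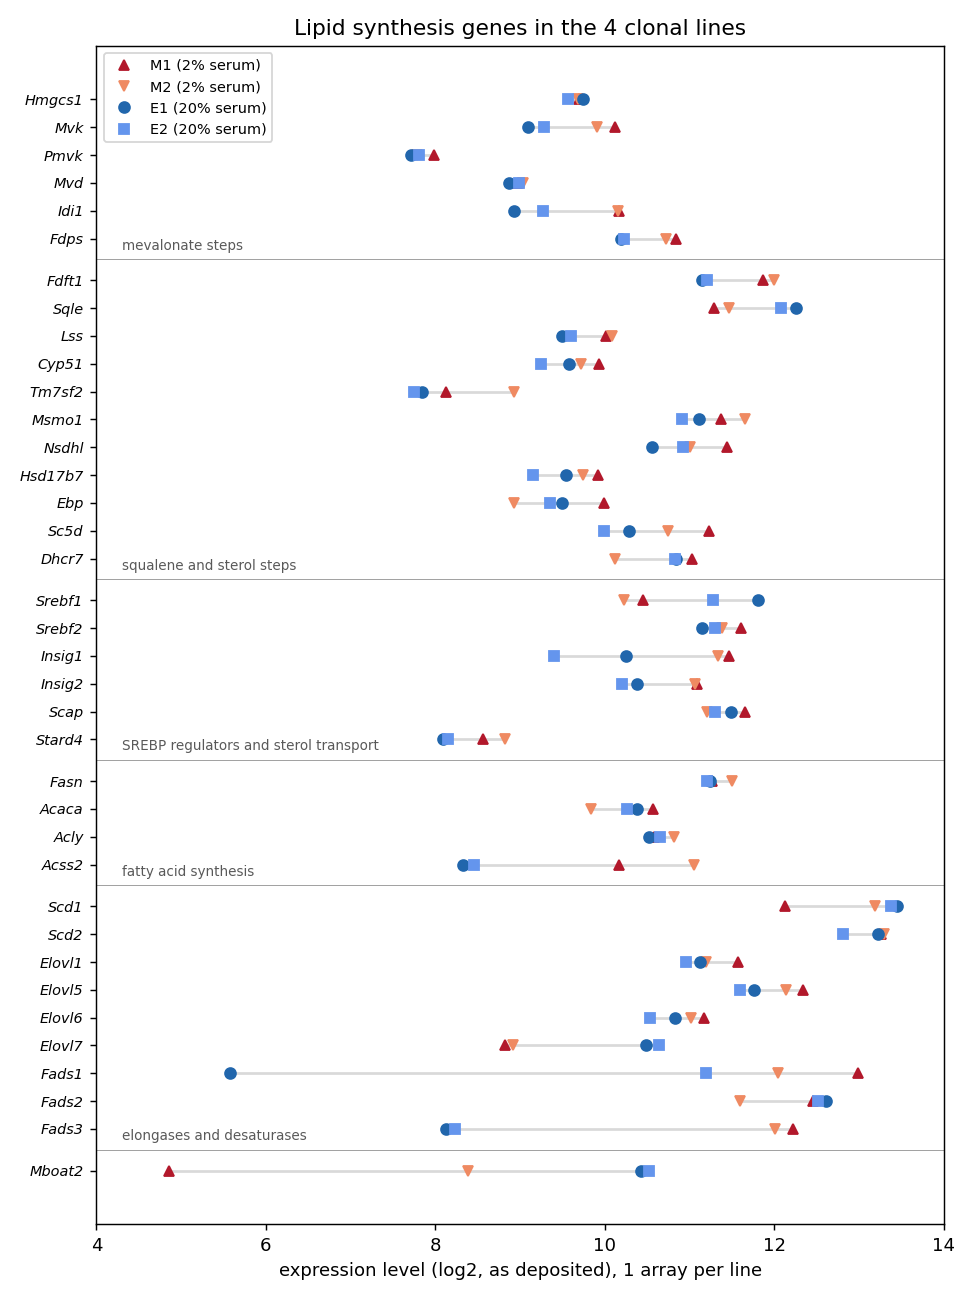
Each row is a gene and each symbol its log2 level in a clonal line, with 1 array per line (horizontal axis), and the grey line spans the 4 levels; genes are grouped by role. The mesenchymal-like symbols lie right of both epithelial symbols in 23 of 37 rows, and the widest rows are Fads1, Mboat2, Fads3 and Acss2.

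The enzymes that turn acetyl-CoA into farnesyl diphosphate differed by at most 1.06 on the log2 scale. None of the 6 measured passed by limma, against 3.73% of all probe sets in either direction. Of the 6, 3 were higher and 0 lower at an unadjusted p under 0.05, against 8.95% and 9.00% of all probe sets. Idi1, which isomerizes isopentenyl diphosphate, was at 10.17 and 10.15 in M1 and M2, against 8.93 and 9.27 in E1 and E2. The difference came to 1.06 (standard error 0.16, adjusted p = 0.0599 by limma). The other probe set of the gene gave 1.12 (adjusted p = 0.0509 by limma). Mvk, the kinase of mevalonate, stood at 10.12 and 9.90 in M1 and M2 and at 9.09 and 9.28 in E1 and E2, with no overlap (difference 0.83, limma adjusted p = 0.0820). Fdps, the farnesyl diphosphate synthase, was at 10.84 and 10.73 in M1 and M2, against 10.18 and 10.22 in E1 and E2 (difference 0.58, limma adjusted p = 0.0948). By contrast, Hmgcs1, which makes HMG-CoA, was level in the 4 lines. It stood at 9.70 and 9.69 in M1 and M2, against 9.74 and 9.56 in E1 and E2, and the 95% interval of its difference ran from -0.29 to 0.38. The decarboxylase Mvd and the kinase Pmvk had differences of 0.08 and 0.12, with intervals from -0.23 to 0.39 and from -0.24 to 0.48.

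From squalene on, 8 of 11 enzymes (72.7%) had both mesenchymal-like lines above both epithelial lines, against 24.2% of all probe sets and 26.9% of the brighter ones. In 1 enzyme (9.09%) they lay below, against 23.8% and 28.5%, and 2 overlapped. With each array centred on its median, Nsdhl overlapped as well. Fdft1, which joins farnesyl units into squalene, was at 11.86 and 12.00 in M1 and M2, against 11.14 and 11.20 in E1 and E2. The difference came to 0.76 (standard error 0.11, adjusted p = 0.0612 by limma). The other Fdft1 probe set gave 0.78. The next enzyme went the other way. Sqle, the squalene epoxidase and a flux-controlling step of the pathway, was at 11.29 and 11.46 in M1 and M2, against 12.25 and 12.08 in E1 and E2 (difference -0.79, standard error 0.13, limma adjusted p = 0.0789). Sqle was thus the only one of the 17 measured sterol enzymes in which the mesenchymal-like lines lay below both epithelial lines. Lss, which closes the ring to lanosterol, was again higher in both mesenchymal-like lines, at 10.02 and 10.08 in M1 and M2 and 9.49 and 9.60 in E1 and E2. The later enzymes Cyp51, Msmo1, Nsdhl, Hsd17b7, Tm7sf2 and Sc5d had differences of 0.41, 0.50, 0.49, 0.48, 0.73 and 0.85, with adjusted p-values by limma between 0.17 and 0.391. In none of the 17 did limma pass the difference, against 3.73% of all probe sets in either direction. At an unadjusted p under 0.05, 7 (41.2%) were higher and 1 (5.88%) lower, against 8.95% and 9.00%.

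Among the last steps, Ebp and Dhcr7 separated the 2 mesenchymal-like clones rather than the types. Dhcr7, the enzyme that makes cholesterol from its last precursor, was at 11.03 in M1 and 10.12 in M2, with E1 and E2 at 10.84 and 10.82. Ebp, a sterol isomerase, was at 9.99 in M1 and 8.93 in M2, with 9.49 and 9.35 in E1 and E2 between them. Their differences between the types, -0.26 and 0.04, had intervals from -1.20 to 0.68 and from -1.06 to 1.14, so that a 2-fold difference lies within the interval in both directions for Ebp and on the lower side for Dhcr7.

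The proliferation list, given here because dividing cells make membrane, had levels that also lay higher in the mesenchymal-like lines. All 9 measured members had a difference above 0, with a median of 0.58, against 50.4% of all probe sets above 0. By limma 0 passed, against 3.73% in either direction. At an unadjusted p under 0.05, 3 (33.3%) were higher and 0 lower, against 8.95% and 9.00%. Its linear sum was 28213 for M1 and 22928 for M2, against 15821 and 20326 for E1 and E2, and its part in the levels of the lipid genes was not tested. Between the clones E2 and E1 the median difference of the proliferation list was 0.53 and that of the 17 sterol enzymes was -0.02, while between M1 and M2 the medians were 0.36 and 0.11.

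The 2 SREBP genes lay in opposite directions, and both Insig genes lay higher in the mesenchymal-like lines, though none passed over all probe sets. Srebf1, whose products favor fatty acid genes, was at 10.45 and 10.23 in M1 and M2, against 11.81 and 11.28 in E1 and E2 (difference -1.21, standard error 0.23, limma adjusted p = 0.0936). The lines of the 2 types did not overlap. Srebf2, which favors the sterol genes, was at 11.61 and 11.38 in M1 and M2, against 11.14 and 11.29 in E1 and E2, a difference of 0.28 with an interval from -0.11 to 0.66. Insig1, both a brake on SREBP release and itself an SREBP target, was at 11.46 and 11.33 in M1 and M2, against 10.25 and 9.40 in E1 and E2. Its difference of 1.57 (standard error 0.32, limma adjusted p = 0.109) was the largest among the regulators. Insig2, the form less dependent on SREBP, was at 11.08 and 11.06 in M1 and M2, against 10.38 and 10.21 in E1 and E2 (difference 0.78, limma adjusted p = 0.0638). Stard4, a carrier of cholesterol between membranes, was at 8.57 and 8.82 in M1 and M2 and at 8.08 and 8.15 in E1 and E2. Scap overlapped between the types, with a difference of 0.03 and an interval from -0.53 to 0.59.

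The core of fatty acid synthesis was nearly level, and the difference of its list lay in Acss2, which makes acetyl-CoA from acetate. Acss2 was at 10.17 and 11.05 in M1 and M2, against 8.32 and 8.46 in E1 and E2. The difference was 2.22 (standard error 0.33), or 4.65-fold, and did not pass over all probe sets (limma adjusted p = 0.0611). Its adjusted p was 0.0472 with the brighter probe sets fitted alone, where 2.87% passed as higher and 3.39% as lower. It was 0.00582 without M1 and 0.0125 without M2, where the epithelial pair alone supplies the spread, but 0.339 without E1 and 0.317 without E2, so the call depends on which lines enter. Acly, which makes the same acetyl-CoA from citrate, was at 10.57 and 10.81 in M1 and M2, against 10.51 and 10.65 in E1 and E2. Fasn, the synthase itself, was at 11.26 and 11.50 in M1 and M2 and at 11.24 and 11.21 in E1 and E2, and the interval of its difference ran from -0.21 to 0.53. Acaca, the carboxylase that commits acetyl-CoA to fatty acids, overlapped between the types, at 10.57 and 9.83 in M1 and M2, against 10.38 and 10.26 in E1 and E2. Its other probe set set the 2 mesenchymal-like clones farther apart, at 9.98 in M1 and 8.76 in M2.

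**Figure D2:**
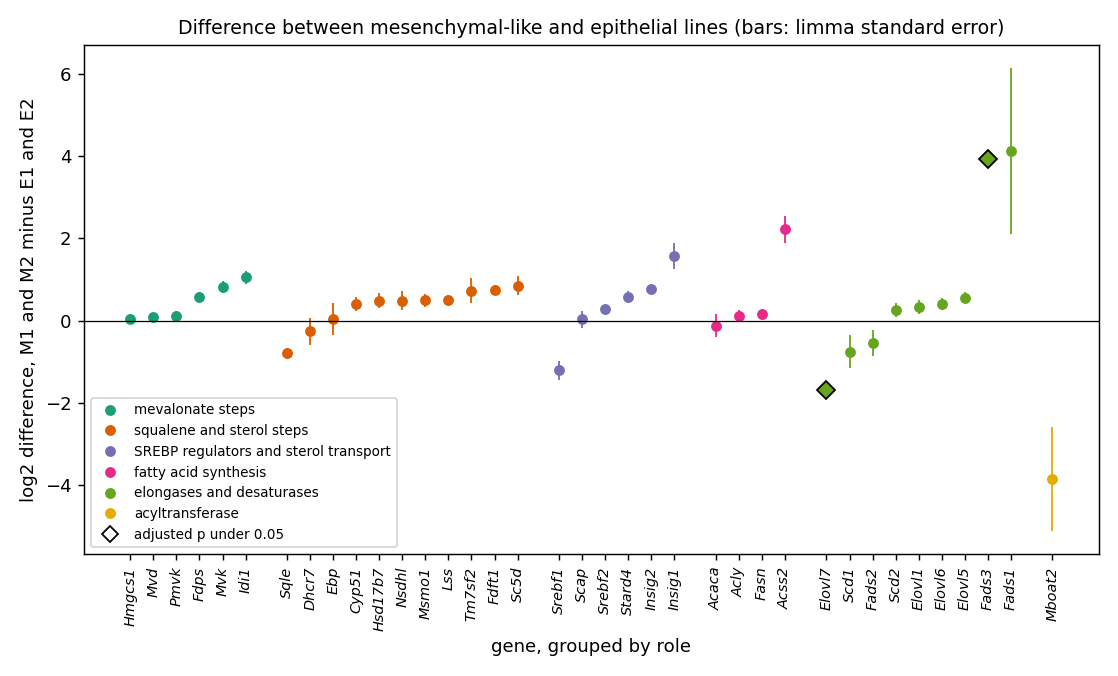
Points are the log2 difference of M1 and M2 minus E1 and E2 for each gene, bars the limma standard error, colors the role, and diamonds the genes with an adjusted p under 0.05. Fads3 and Elovl7 are the diamonds, at 3.94 and -1.69, and the bars of Fads1 and Mboat2 are the widest.

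Elongases and desaturases showed the widest range of differences, and held both genes that passed the test. Fads3, a member of the fatty acid desaturase family that acts on sphingoid bases, rose to 12.22 and 12.00 in M1 and M2, against 8.13 and 8.23 in E1 and E2. The difference of 3.94 (standard error 0.13, limma adjusted p = 0.00284) is 15.3-fold, and Fads3 was number 106 of the 23410 probe sets ordered from the highest difference down. Elovl7, an elongase of long saturated chains, fell to 8.82 and 8.92 in M1 and M2, against 10.48 and 10.63 in E1 and E2 (difference -1.69, standard error 0.12, limma adjusted p = 0.0119). Without E1 the adjusted p was 0.0618 for Fads3 and 0.118 for Elovl7, and without E2 it was 0.0624 and 0.136. Elovl1, Elovl5 and Elovl6 lay higher in both mesenchymal-like lines than in both epithelial lines, but with each array centred on its median Elovl1 overlapped. Elovl5, which lengthens polyunsaturated chains, was at 12.33 and 12.13 in M1 and M2, against 11.76 and 11.59 in E1 and E2, and Elovl1 and Elovl6 had differences of 0.34 and 0.41, none passing by limma.

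Fads1, the delta-5 desaturase that makes arachidonic acid, stood apart in a single epithelial clone. It was at 12.98 and 12.04 in M1 and M2, against 5.58 in E1 and 11.19 in E2. The level in E1 lay below the median of all values, at percentile 29.6 of that array, whereas in the other 3 lines Fads1 was at percentile 91.0 or above. E2 was 48.8-fold above E1, and this difference of 5.61 ranked 4 among 23410 probe sets. Both mesenchymal-like lines were above both epithelial lines, but limma gave a difference of 4.13 with a standard error of 2.02 (adjusted p = 0.422), and without E1 the difference was 1.32 (0.561). Fads2, the delta-6 desaturase that acts before it, was high in all 4 lines, at 12.45 and 11.59 in M1 and M2, against 12.61 and 12.51 in E1 and E2.

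The 3 desaturases are neighbors on chromosome 19, in the order Fads3, Fads2, Fads1, and the 5 protein-coding genes on each side of Fads1 were read after its values had been seen. In E1 none of these 10 genes was low beside E2: their differences, E2 minus E1, ran from -0.42 to 0.22. However, Best1, Rab3il1, Dagla and Myrf were below 6.78, the median of all values, in both epithelial lines. Syt7 was just above it, at 6.83 in E1 and 6.86 in E2. For these genes a fall in E1 could hardly be seen. Fen1, the flap endonuclease next to Fads1, was at 8.26 in E2 and 8.15 in E1. Across the types, Fads3 and Dagla, a lipase that makes an endocannabinoid, were higher in the mesenchymal-like lines, with Dagla at 10.27 and 10.90 in M1 and M2, against 6.59 and 6.47 in E1 and E2 (difference 4.05, limma adjusted p = 0.00859). The 5 genes that lie between them, Fads2, Fads1, Fen1, Tmem258 and Myrf, did not pass (adjusted p = 0.422 to 0.827).

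**Figure D3:**
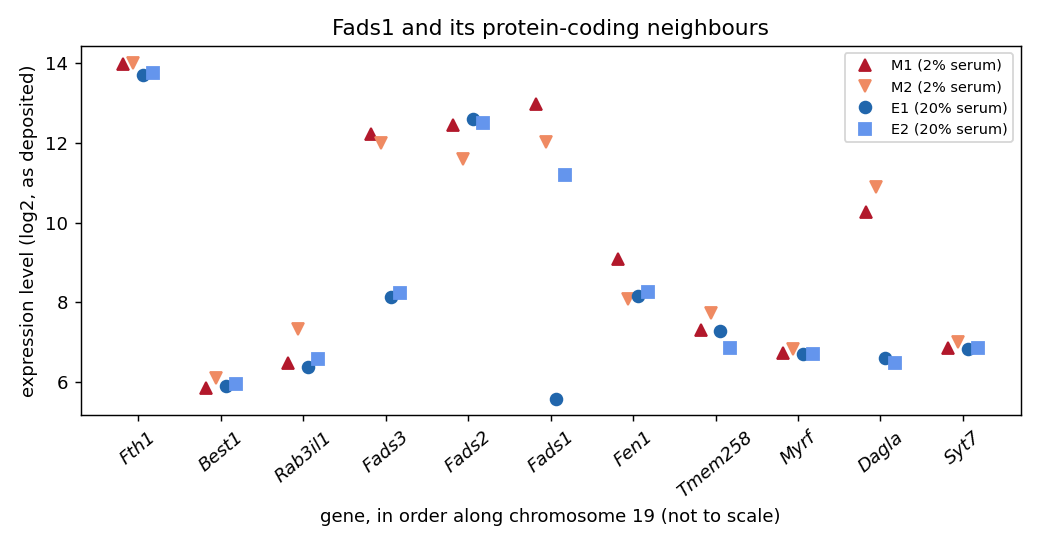
Symbols give the log2 level (vertical axis) of Fads1 and the 5 nearest protein-coding genes on each side in the 4 lines, in chromosome order and not to scale. Fads1 in E1, at 5.58, is far below its level in the other lines, while the neighbors of Fads1 in E1 and E2 differ by at most 0.42. Best1, Rab3il1, Dagla and Myrf lie below 6.78, the median of all values, in both E1 and E2.

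The stearoyl-CoA desaturases, which place the double bond of oleic acid, differed from one another. Scd1 was at 12.12 in M1 and 13.19 in M2, against 13.44 and 13.37 in E1 and E2, so that M1 stood at least 2-fold below the other 3 lines. Scd2 was at 13.26 and 13.29 in M1 and M2, against 13.22 and 12.81 in E1 and E2. Scd3, from the list of other desaturases, fell to 6.19 and 6.21 in M1 and M2, against 9.39 and 10.06 in E1 and E2 (difference -3.53, standard error 0.26, limma adjusted p = 0.0128). Scd3 was thus below the median of all values in both mesenchymal-like lines and above it in both epithelial lines. The Scd genes are close copies, and how far their probes share transcripts is not given in the sources used here.

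M1 was above M2 in 23 of the 37 genes, against 49.1% of all probe sets. The pair lay within 2-fold in 34 genes, with 1 gene at least 2-fold higher in M1 and 2 lower, against 3.22% and 2.64% of all probe sets. The 3 genes were Ebp at 2.09-fold higher, Scd1 at 2.09-fold lower and Mboat2. With each array centred on its median, M1 was at least 2-fold higher in 3 genes and lower in 1. Mboat2, an acyltransferase that puts monounsaturated chains on lysophospholipids, was at 4.86 in M1 and 8.39 in M2, against 10.43 and 10.52 in E1 and E2. It was 11.5-fold lower in M1 than in M2, and since the study selected it for such a difference this is a description alone. Set against the other 3 lines together, M1 was at least 2-fold lower than each in 2 of 37 genes, Scd1 and Mboat2, and higher than each in 0, against 0.765% and 1.53% of all probe sets, but with centred arrays it was 1 gene lower and 1 higher. The study's selection fixed the place of Mboat2 in this count and in that of genes lower in M1 than in M2. Tm7sf2, a sterol reductase, and Acss2 were instead higher in M2, by 0.81 and 0.88. With 1 array a line none of these clone differences has a test.

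The epithelial clones were closer, with 34 of 37 genes within 0.5 on the log2 scale between E2 and E1, and 28 between M1 and M2. They were also closer over all probe sets tested, where the median absolute difference was 0.14 for E2 and E1 and 0.18 for M1 and M2. In E2, 1 gene, Fads1, was at least 2-fold higher than in E1 and 0 were lower, against 1.25% and 0.987% of all probe sets. Insig1 and Srebf1 were the other exceptions, at 0.84 and 0.53 lower in E2. For 22 of the 37 genes the difference between the types was larger than that between the clones of either type, against 35.3% of all probe sets.

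**Figure D4:**
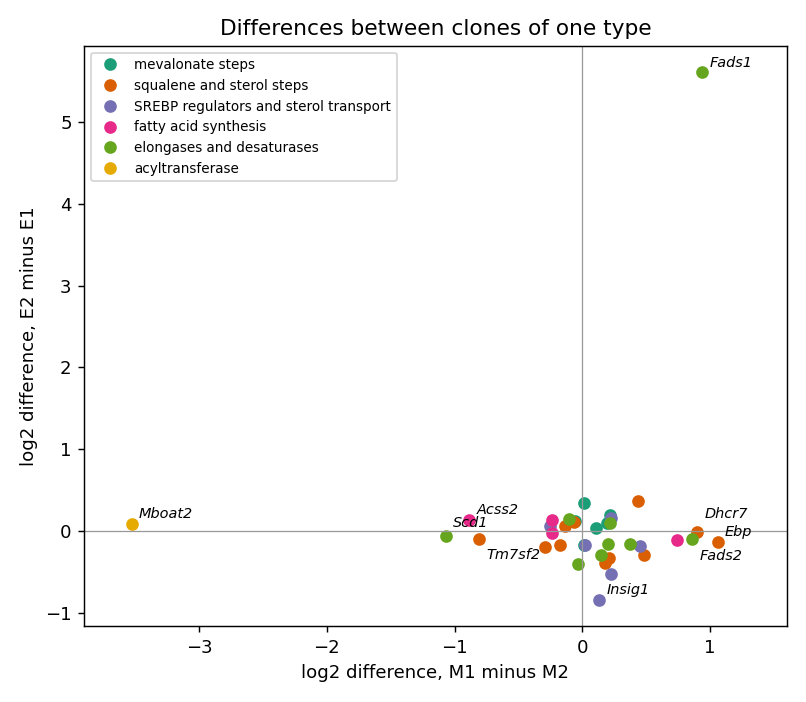
Each point is a gene, with the log2 difference M1 minus M2 on the horizontal axis and E2 minus E1 on the vertical axis, colored by role. Mboat2 lies far left at -3.53 and Fads1 far up at 5.61, and 33 of the remaining 35 genes lie within 1 of zero on both axes.

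Beyond the 37 genes, 71 of 86 further lipid genes had a probe set, with a median difference of -0.08. Both mesenchymal-like lines were above both epithelial lines in 22 of them (31.0%) and below in 19 (26.8%), against 24.2% and 23.8% of all probe sets. By limma 2 (2.82%) were higher and 3 (4.23%) lower, against 1.72% and 2.02%. Lipa, the lysosomal lipase that frees cholesterol from lipoprotein esters taken up from serum, rose to 10.70 and 10.58 in M1 and M2, against 9.26 and 9.51 in E1 and E2 (difference 1.26, limma adjusted p = 0.0322). It was the single gene that passed among 13 of cholesterol uptake, esterification and efflux. Acss1, the mitochondrial counterpart of Acss2, fell to 6.41 and 6.53 in M1 and M2, against 9.07 and 9.77 in E1 and E2 (difference -2.95, limma adjusted p = 0.0209). The 2 acetyl-CoA synthetases therefore differed in opposite directions between the types, Acss1 past the threshold and Acss2 not. Among 16 glycerolipid acyltransferases, Agpat4, which acylates lysophosphatidic acid, rose to 9.73 and 9.10 in M1 and M2, against 5.78 and 6.26 in E1 and E2 (difference 3.40, limma adjusted p = 0.0188). Lpcat2, which remodels phosphatidylcholine, fell to 8.63 and 8.89 in M1 and M2, against 10.93 and 10.64 in E1 and E2 (difference -2.03, limma adjusted p = 0.0176). Of 4 other sterol synthesis genes, 7 of SREBP processing and sterol-regulated protein turnover and 7 of the isoprenoid branches, 0 passed by limma. At an unadjusted p under 0.05 there were 0, 3 and 2, against 8.95% higher and 9.00% lower over all probe sets. The 13 genes that supply or control fatty acid synthesis included Acss1 and the 11 other elongases and desaturases included Scd3, and no other member of these lists passed.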

How the data were processed

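RNA of 4 clonal lines was hybridised to MoGene 1.0 ST arrays (Affymetrix), each line once. The authors deposited normalized log2 levels. Per the labels they were processed in Partek, and background correction, normalization and summarization are not given in the sources used here. The labels name Trizol and the methods a column kit for RNA. Of 35556 probe sets, 21789 had 1 gene symbol in the platform annotation, 1621 several and 12146 none. Symbols of the genes read were checked against RefSeq and 0 changed.

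The 23410 probe sets with a symbol, no further scaling applied, were fitted with limma 3.58.1 in R 4.3.3 (lmFit and eBayes) for M1 and M2 against E1 and E2, with 2 residual degrees of freedom, and p-values were adjusted by Benjamini-Hochberg over all of them. Clone pairs have no test, and 2-fold is a description. P-values measure the spread between clones, and the number of arrays limits the precision. The fit was run on simulated arrays with changes of known size and values drawn independently. That checks the code and does not bear on the calls made here. The members and lists were chosen with earlier results of these data known. Every member could be named, and further genes when they passed, at most 4 a list. Genes beside Fads1 and in the closing values were added after seeing the data. Alternatives were other scalings, a filter, a floor, other forms of the fit, gene means and leaving out each line.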

Additional observations from a re-analysis of the deposited data

How the results depend on the processing

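The median difference of the 37 genes was 0.41 and stayed above 0 in every alternative run, between 0.37 and 0.43 under the other scalings and gene means and from 0.26 (E2 out) to 0.45 (E1 out) when a line was left out. The count of genes passing was 2 and became 1, Fads3, with values raised to the median of the table, with an adjusted p of 0.01 as the threshold and with the clone number as a replicate block, and it ranged from 0 to 6 when a line was left out. Over all probe sets 874 passed, with 223, 262 and 319 in the same 3 settings. When a line was left out the count ran from 0 (E1 out, 2579 by unadjusted p, or E2 out, 2651) to 1879 (M2 out). The numbers in the line names are clone names, the deviations of same-numbered lines correlated at -0.04 across probe sets, and the block left 1 residual degree of freedom fewer. With each array centred on its median, both mesenchymal-like lines were above both epithelial lines in 19 genes and not 23. Elovl1, Nsdhl, Srebf2 and Scd2 then overlapped between the types. Fads3 and Elovl7 kept their sign in every setting. Among members that did not pass, Ebp, Scap, Hmgcs1, Dhcr7, Acaca and Acly changed sign in at least 1 setting, and their direction is unsettled. The cause of these changes was not tested. Signal over background is unknown, which limits folds that rest on low values, such as Fads1 in E1 and Mboat2 in M1.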

Other observations

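A pair of further lipid genes, picked after their values had been seen, stood apart in a single mesenchymal-like clone. Nr1h3, the liver X receptor alpha that oxysterols activate, was at 10.43 in M1 and 8.17 in M2, with 8.50 in E1 and 8.11 in E2. Cyp27a1, which makes an oxysterol from cholesterol, was at 8.65 in M2 and 6.66 in M1, with 6.11 in E1 and 6.35 in E2. Other oxysterol genes were closer between the clones, with Ch25h, another oxysterol-making enzyme, at 5.55 in M1 and 5.35 in M2, and Osbp, the oxysterol-binding protein, at 10.97 in M1 and 10.78 in M2. Each level comes from 1 array and none of these clone differences has a test.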
